A study of Gallus gallus with 8 samples.

Results

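Mitochondrial ribosomal protein genes were taken from the count table of engineered chick muscle as every gene whose symbol begins with MRPL or MRPS and continues with a digit. This gave 68 of 17775 genes, 41 named for the large subunit (*MRPL*) and 27 for the small subunit (*MRPS*). The tissues were grown from *Gallus gallus* myoblasts of E10 embryo thighs (embryonic day 10) on micromolded hydrogels of gelatin crosslinked with transglutaminase, and serum was lowered at confluence to start differentiation. The groups were 3 tissues collected at day 21 after the start of differentiation (week 3, tissues 3-1 to 3-3) and 5 tissues collected at day 7 (week 1, tissues 1-1 to 1-5), all without motor neurons. Week and culture age are the same thing in this design, and whether both weeks came from the same cell harvests is not given in the sources used here, so an effect of harvest cannot be told apart from one of the week. The p-values measure the spread between these cultures. RNA of each whole tissue was sequenced, and the comparison asks how the transcriptome of the muscle differed after the longer culture.

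The mitochondrial ribosome translates the few proteins that the mitochondrial genome encodes, all of them hydrophobic subunits of the respiratory chain and ATP synthase. Its rRNAs are mitochondrial transcripts, whereas its proteins are encoded by nuclear genes scattered over the chromosomes, made in the cytosol, and imported. Some of these proteins descend from those of the bacterial ribosome and others are specific to mitochondria. Skeletal muscle fibers are rich in mitochondria, and inherited defects of several of these proteins affect human heart and muscle.

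All 68 genes were in the table of normalized values and passed the filter on low counts, and the lowest estimated count of any of them in any tissue was 202. Depth, as the total of estimated counts in a tissue, lay between 15447904 and 18902561 at week 3 and between 14368710 and 16545497 at week 1. Levels are given as FPKM-UQ, the deposited normalized value. It is the estimated count, raised by 1 and scaled by a factor that all genes of a tissue share. Gene length does not enter it, so levels are compared between tissues for one gene and not between genes. Mean FPKM-UQ of the 68 genes ranged from 16.9 to 111.1. Of 14311 genes tested, 3367 (23.5%) had an adjusted p below 0.05 between the weeks in edgeR's quasi-likelihood test with Benjamini-Hochberg adjustment, which is what "called" means here. Skeletal muscle markers summed to 15330 to 15674 FPKM-UQ at week 3 and 17220 to 24547 at week 1 (8 of 10 listed markers with values, 3 called, all lower), so the tissues carried the markers of their label. Summed markers of macrophages and leukocytes were at 43.6 to 47.5 at week 3 and 62.5 to 108.7 at week 1 (5 of 5 markers with values, 4 called, all lower), and those of fibroblasts at 22771 to 23452 and 20260 to 31478 (8 of 9, of which 1 was higher and 4 were lower). The lowest value of any marker in any tissue was 1.07 among the leukocyte markers and 8.56 among the fibroblast markers. The markers with the lowest maximum over the tissues were *PTPRC* and *PDGFRA*. The part of cell composition in the results was not tested. Fewer cells of a type and less RNA per cell cannot be told apart in such bulk samples.

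As a family the mitochondrial ribosomal protein genes differed little between the weeks. Among the 68 genes, 6 rose and 2 fell at week 3, which is 11.8% called beside 23.5% of all genes tested. Here and below, "rose" and "fell" are used of genes called higher or lower at week 3. Over all genes 11.5% were called higher and 12.0% lower. In the large subunit 4 of 41 rose and 1 fell (12.2% called), and in the small subunit 2 of 27 rose and 1 fell (11.1% called). The median log2 fold change, week 3 over week 1, was 0.043 over the 68 genes with quartiles of -0.055 and 0.15. Taken apart, the median was 0.008 for the large subunit and 0.065 for the small subunit, beside -0.0065 over all genes tested, whose quartiles were wider at -0.23 and 0.21. The log2 fold change was positive in 39 of the 68 genes and smaller than 0.1 in size in 37.

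**Figure D1:**
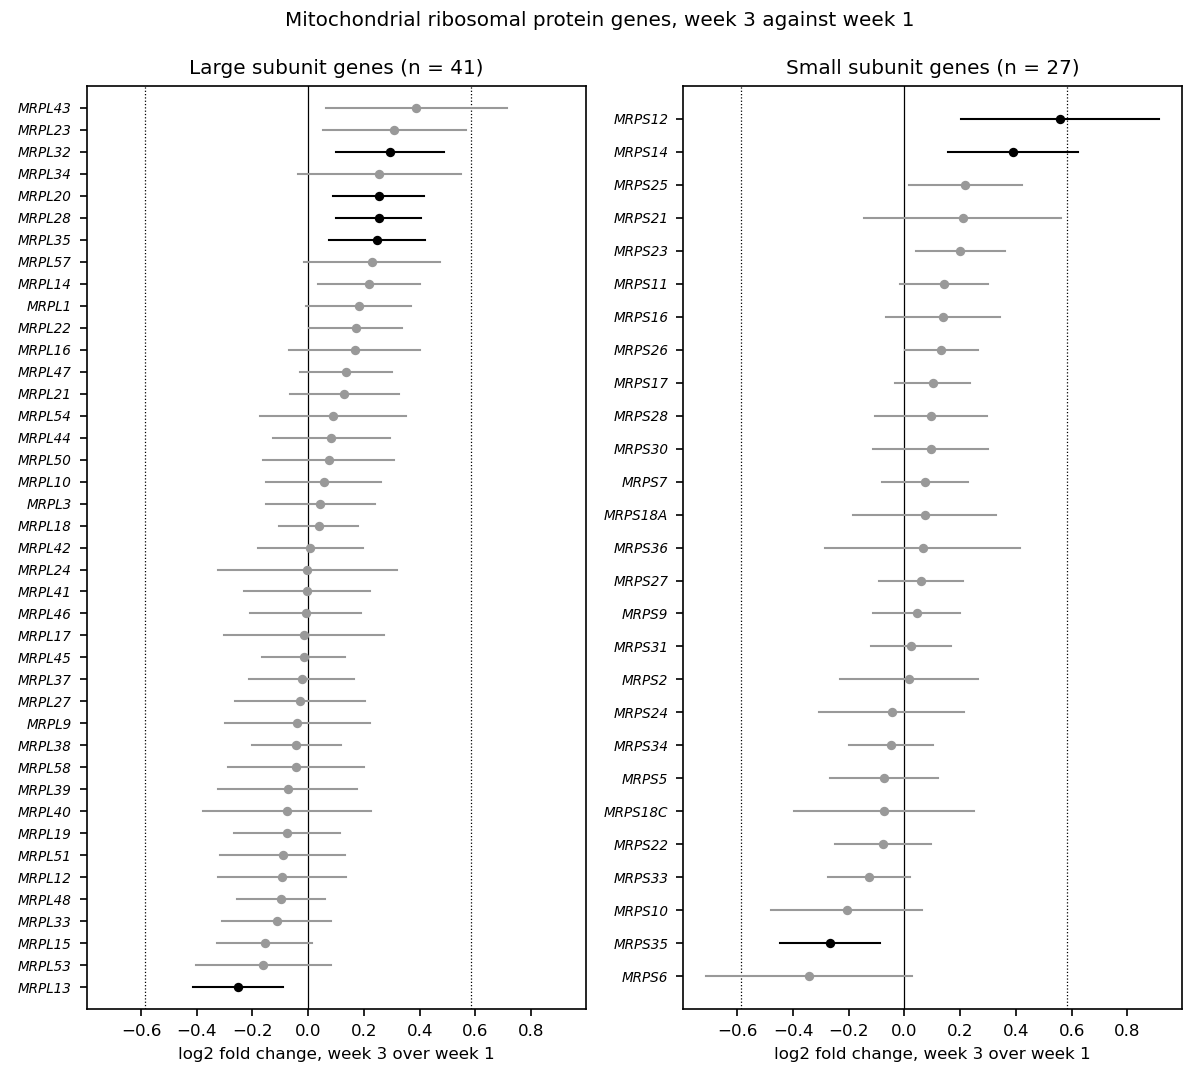
Log2 fold change (week 3 over week 1) of the 41 large subunit genes and the 27 small subunit genes with 95% intervals from edgeR's quasi-likelihood fit, black where the adjusted p was below 0.05, with dotted lines at a fold change of 1.5 in either direction. No point lies past a dotted line in this fit of all 8 tissues, and the intervals of *MRPL43*, *MRPS12*, *MRPS14*, and *MRPS6* reach past one.

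The study counted a gene as differentially expressed when its p was under 0.05 and its change exceeded 1.5-fold. Of all genes tested 2090 met both limits (14.6%), and of the 68 genes none did. Of the 68, 15 had an unadjusted p below 0.05 in edgeR, beside 5136 of the 14311 genes tested. The count meeting both limits was also 0 in DESeq2 and in limma with a pseudocount of 1. It rested on *MRPS12*, at 1.47-fold just under the limit. This gene, and no other of the 68, met both limits in limma with a pseudocount of 0.1 (1.52-fold), in edgeR without tissue 1-2 (1.504-fold), 1-5 (1.56-fold), or 3-2 (1.52-fold), and in edgeR with the replicate number as a block (1.62-fold both over all tissues and over the 3 pairs). The block fits nearly coincide by design, since week 1 tissues without a week 3 partner add almost nothing to the week difference. The standard error of the log2 fold change ranged from 0.060 to 0.17 with a median of 0.092. For 64 of the 68 genes the whole 95% interval lay within a fold change of 1.5. For the other 4 genes it reached further, with extremes of 0.91 for *MRPS12* and -0.71 for *MRPS6*. Separate ranges of FPKM-UQ at week 3 and week 1 were found for 16 of the 68 genes (13 of them higher at week 3), beside 28.6% of 15392 genes with these values, and the 16 include the 8 called genes. The other 8, listed here after their values were seen, were *MRPL1*, *MRPL14*, *MRPL15*, *MRPL22*, *MRPL23*, *MRPS17*, *MRPS23*, and *MRPS26*.

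Each of the 5 called large subunit genes encodes a protein of bacterial descent. Among the genes found for large subunit proteins, 24 were listed as bacterial-type and 19 as mitochondria-specific. Without tissue 1-1, *MRPL40* and *MRPL43* of the second list were called too (adjusted p = 0.015 and 0.011 in edgeR), beside 38.6% of all genes tested. *MRPL28* (chromosome 14, 12534726 to 12537892, plus strand; GRCg6a) had 85.7, 95.1, and 97.8 FPKM-UQ in tissues 3-1 to 3-3, against 70.5, 77.5, 75.6, 79.5, and 82.8 FPKM-UQ in tissues 1-1 to 1-5. All 3 older tissues stood above all 5 younger ones. The means were 92.9 ± 6.37 and 77.2 ± 4.57 (SD, n = 3 and 5; log2 fold change 0.25, SE 0.07, adjusted p = 0.022 in edgeR's quasi-likelihood test), and the exact two-sided permutation test of FPKM-UQ gave p = 0.0357. That value is the smallest the 56 splits of 3 against 5 tissues allow, and any gene with separate ranges reaches it. All 8 called genes did, as did the other 8 genes with separate ranges, so it adds nothing to that separation.

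*MRPL20* (chromosome 21, 2214476 to 2217199, plus strand) had 69.0, 72.4, and 75.5 FPKM-UQ in the week 3 tissues, against 54.3, 60.3, 61.7, 67.3, and 56.9 FPKM-UQ in the week 1 tissues. The lowest week 3 tissue stood just above the highest week 1 tissue (log2 fold change 0.25, SE 0.08, adjusted p = 0.030 in edgeR). This gene shares bases with *CCNL2* on the same strand and had fractional counts in all 8 tissues, so part of its reads may have been divided between genes. Fractional counts alone do not show this, since *MRPL19* and *MRPS9* had them in all 8 tissues without an overlapping gene.

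*MRPL35* (chromosome 4, 85493267 to 85495164, plus strand) had 52.6, 58.1, and 56.2 FPKM-UQ at week 3, against 41.9, 47.9, 45.1, 45.0, and 52.2 FPKM-UQ at week 1. The groups came close to meeting, between tissues 3-1 and 1-5 (log2 fold change 0.25, SE 0.08, adjusted p = 0.042 in edgeR). *MRPL32*, whose product is matured in yeast and mouse mitochondria by the m-AAA protease before it joins the ribosome, lies on chromosome 2 from 51155641 to 51158032 on the plus strand. It had 26.6, 29.6, and 25.9 FPKM-UQ at week 3, against 20.7, 23.7, 20.4, 23.1, and 22.8 FPKM-UQ at week 1. All week 3 values were above all week 1 values (log2 fold change 0.29, SE 0.09, adjusted p = 0.031 in edgeR).

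*MRPL13* (chromosome 2, 136911020 to 136937314, minus strand) was the only large subunit gene called lower. Its levels were 35.7, 40.6, and 38.3 FPKM-UQ in the week 3 tissues, against 43.2, 43.9, 47.3, 47.4, and 43.3 FPKM-UQ in the week 1 tissues. Each week 3 tissue was below each week 1 tissue, with means of 38.2 ± 2.48 and 45.0 ± 2.14 (SD, n = 3 and 5; log2 fold change -0.25, SE 0.07, adjusted p = 0.028 in edgeR).

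**Figure D2:**
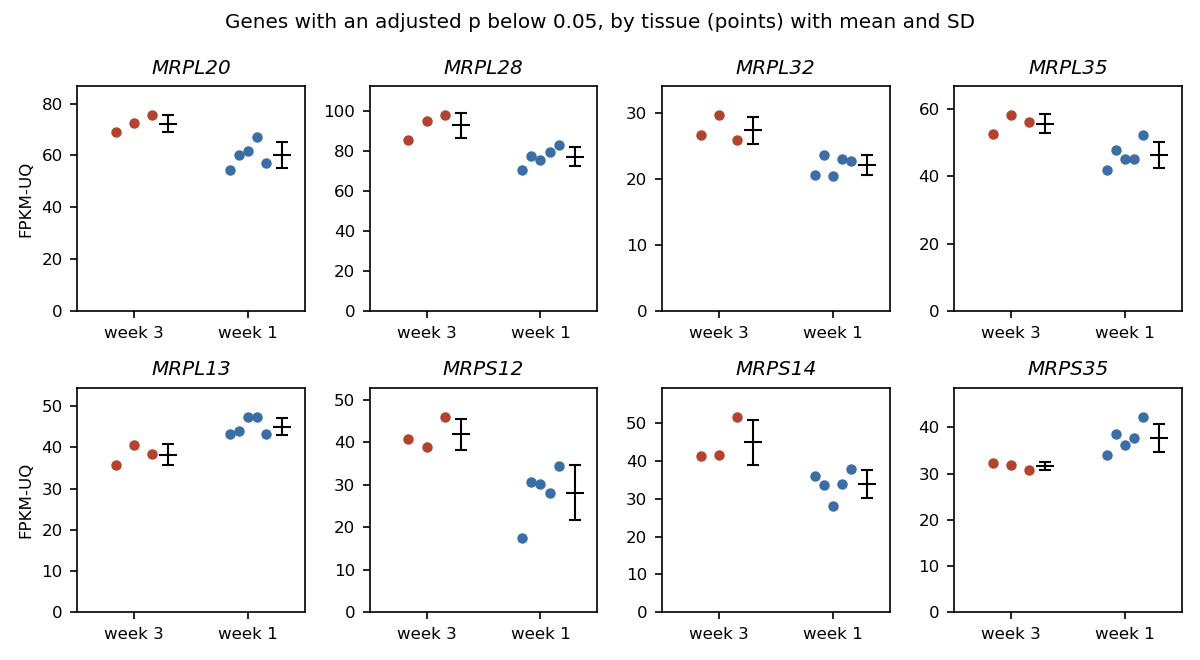
FPKM-UQ of the 8 called genes in each tissue (points, tissues in numerical order within a week), with the mean and SD of week 3 (n = 3) and week 1 (n = 5) beside them. Week 3 is above week 1 without overlap for 6 genes and below it without overlap for *MRPL13* and *MRPS35*, and the lowest *MRPS12* point is tissue 1-1 at 17.6.

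The calls in the large subunit, like those over all genes tested, depended on single tissues. Leaving out 1 tissue at a time gave 10 called large subunit genes without tissue 1-1, 3 without 1-2, 3 without 1-4, 6 without 1-5, and 1 each without 3-1 or 3-2. No large subunit gene was called in edgeR without 1-3 or without 3-3, where 8 and 5 of the 41 had an unadjusted p below 0.05. Such a p was found for 4708 of 14211 genes tested without 1-3 and 4173 of 14587 without 3-3. Over all genes tested, 5498 of 14237 were called without 1-1, 2735 of 14241 without 1-2, and 2719 of 14211 without 1-3. The counts were 2857 of 14238 without 1-4 and 2931 of 14244 without 1-5. They were 2181 of 14603 without 3-1, 2133 of 14607 without 3-2, and 2119 of 14587 without 3-3. Of the 8 such fits, *MRPL28* kept its call in 5, *MRPL13* and *MRPL32* in 4 each, and *MRPL20* and *MRPL35* in 2 each, with the direction unchanged in every fit. Their highest adjusted p in these fits were 0.12 for *MRPL28* (without 3-3), 0.14 for *MRPL13* (without 3-1), 0.16 for *MRPL32* (without 3-2), 0.13 for *MRPL20* (without 3-3), and 0.17 for *MRPL35* (without 3-2). DESeq2 and limma on log2 FPKM-UQ called the same 5 genes.

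In the small subunit *MRPS12* and *MRPS14* rose and *MRPS35* fell. *MRPS12* encodes a protein at the decoding centre, the bacterial counterpart of which is a site of streptomycin resistance. The gene (chromosome 32, 107756 to 108482, minus strand) had 40.7, 38.7, and 45.9 FPKM-UQ in the week 3 tissues, against 17.6, 30.6, 30.3, 28.0, and 34.4 FPKM-UQ in the week 1 tissues. The ranges were apart, and tissue 1-1 stood far below the other tissues of its week. The log2 fold change was 0.56 (SE 0.16, adjusted p = 0.028 in edgeR's quasi-likelihood test), which is 1.47-fold and the largest of the 68 genes. Without tissue 1-1 it was 0.43, with an adjusted p of 0.00021. The coefficient of variation of *MRPS12* at week 1, 22.6%, was also the highest of the 68 genes, beside a median of 10.6% at week 1 and 5.43% at week 3. Over 1-2 to 1-5 alone it was 8.71%, beside a median of 6.78%.

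*MRPS14* (chromosome 8, 7476798 to 7479199, plus strand) encodes another protein of bacterial descent. Its levels were 41.2, 41.6, and 51.5 FPKM-UQ at week 3, against 35.9, 33.7, 28.0, 33.9, and 37.7 FPKM-UQ at week 1. Tissue 3-3 stood highest, and every week 3 tissue was above week 1 (log2 fold change 0.39, SE 0.11, adjusted p = 0.021 in edgeR). This gene overlaps *CACYBP* on the opposite strand and had fractional counts in all 8 tissues. Whether counting used strand is not given in the sources used here, so reads of the 2 genes may not have been kept apart.

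*MRPS35* (chromosome 1, 72622696 to 72644857, plus strand) encodes a protein specific to mitochondrial ribosomes. Its levels were 32.3, 31.9, and 30.8 FPKM-UQ at week 3, against 34.1, 38.6, 36.3, 37.6, and 42.3 FPKM-UQ at week 1. The week 3 tissues lay close together below all week 1 tissues, with means of 31.7 ± 0.812 and 37.8 ± 3.04 (SD, n = 3 and 5; log2 fold change -0.27, SE 0.08, adjusted p = 0.035 in edgeR). An unnamed gene, ENSGALG00000053772, overlaps it on the opposite strand. Leaving out single tissues gave 5 called small subunit genes without 1-1 and 1 each without 1-4, 3-1, or 3-2. None was called in edgeR without 3-3, where 5 of the 27 had an unadjusted p below 0.05, beside 4173 of 14587 over all genes. The number called was 2 without 1-2, 3 without 1-3, and 2 without 1-5. Over all genes tested, the counts ran from 2119 of 14587 without 3-3 to 5498 of 14237 without 1-1. *MRPS14* kept its call in 7 of these 8 fits, *MRPS12* in 4, and *MRPS35* in 2, with the direction unchanged. The highest adjusted p were 0.13 without 3-3 for *MRPS14*, 0.12 without 3-3 for *MRPS12*, and 0.13 without 3-3 for *MRPS35*.

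Well-known members of the large subunit were not called. *MRPL12* forms the stalk of the large subunit and its human product also binds the mitochondrial RNA polymerase. It had 67.6, 75.7, and 78.3 FPKM-UQ at week 3, against 64.9, 84.3, 72.5, 76.1, and 92.5 FPKM-UQ at week 1. The groups overlapped, with the lowest and the highest value both at week 1 (log2 fold change -0.09, 95% interval -0.32 to 0.13, adjusted p = 0.56 in edgeR). *MRPL44*, whose product is related to RNase III and is mutated in a human cardiomyopathy, had 75.8, 76.5, and 87.4 FPKM-UQ at week 3, against 61.5, 80.6, 77.8, 71.1, and 82.7 FPKM-UQ at week 1. These groups also overlapped (log2 fold change 0.08, 95% interval -0.13 to 0.29, adjusted p = 0.58 in edgeR). *MRPL3*, likewise a human cardiomyopathy gene, had 42.8, 36.7, and 46.6 FPKM-UQ at week 3, against 36.5, 41.0, 40.6, 40.1, and 44.0 FPKM-UQ at week 1. Tissue 3-2 lay close to the lowest week 1 tissue, and the log2 fold change was 0.04 (95% interval -0.15 to 0.24, adjusted p = 0.78 in edgeR).

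*MRPL45*, whose product sits beside the exit of the peptide tunnel, differed least between the weeks among these. It had 42.2, 42.2, and 43.0 FPKM-UQ at week 3, against 41.5, 46.0, 42.6, 41.8, and 41.0 FPKM-UQ at week 1. The week 3 range lay inside the week 1 range (log2 fold change -0.02, 95% interval -0.16 to 0.13, adjusted p = 0.89 in edgeR). *MRPL58* encodes a peptidyl-tRNA hydrolase that in human cells is built into the ribosome. Its levels were 20.8, 22.2, and 24.7 FPKM-UQ at week 3, against 18.6, 22.4, 23.3, 25.5, and 25.5 FPKM-UQ at week 1. Here too the week 1 range enclosed the week 3 range (log2 fold change -0.04, 95% interval -0.29 to 0.20, adjusted p = 0.82 in edgeR).

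*MRPS22*, mutated in human cardiomyopathy, had 26.9, 27.1, and 24.6 FPKM-UQ at week 3, against 27.0, 28.8, 26.4, 28.5, and 26.1 FPKM-UQ at week 1 (log2 fold change -0.08, 95% interval -0.25 to 0.10, adjusted p = 0.53 in edgeR). *MRPS34*, mutated in a human mitochondrial disease, had 49.4, 55.4, and 51.7 FPKM-UQ at week 3, against 51.6, 52.8, 52.7, 52.3, and 57.6 FPKM-UQ at week 1 (log2 fold change -0.05, 95% interval -0.20 to 0.10, adjusted p = 0.66 in edgeR). Both pairs of groups overlapped.

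The paralogs *MRPS18A* and *MRPS18C* encode related proteins of different subunits, since the product of *MRPS18A* sits in the large subunit despite its name. *MRPS18A* had 21.0, 22.4, and 23.1 FPKM-UQ at week 3, against 16.2, 20.8, 23.0, 23.8, and 20.6 FPKM-UQ at week 1. *MRPS18C* had 18.7, 19.9, and 19.5 FPKM-UQ at week 3, against 14.8, 26.0, 20.0, 18.5, and 21.6 FPKM-UQ at week 1. Tissue 1-1 was the lowest for both, and the log2 fold changes were 0.07 for *MRPS18A* and -0.07 for *MRPS18C*, with adjusted p of 0.71 and 0.77 in edgeR.

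*MRPS30* is also named for the small subunit while its product sits in the large subunit. It had 44.8, 40.8, and 56.3 FPKM-UQ at week 3, against 44.1, 45.6, 43.2, 44.0, and 42.5 FPKM-UQ at week 1. Both the lowest and the highest tissue were at week 3, where its coefficient of variation of 17.0% was the highest of the 68 genes (log2 fold change 0.09, 95% interval -0.11 to 0.30, adjusted p = 0.52 in edgeR). *MRPS36*, whose product is better known as a subunit of the 2-oxoglutarate dehydrogenase complex, had 34.2, 28.8, and 29.5 FPKM-UQ at week 3, against 18.8, 31.6, 30.8, 35.5, and 29.5 FPKM-UQ at week 1. Apart from tissue 1-1 the weeks covered nearly the same range (log2 fold change 0.07, 95% interval -0.28 to 0.41, adjusted p = 0.81 in edgeR).

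The genes of both subunits were also divided into bacterial-type and mitochondria-specific lists, and proteins of the ribosome under other names were added. The 2 MRPS-named genes of large subunit proteins were placed among the mitochondria-specific ones. For *MRPS18A* this does not follow descent, since its paralog *MRPS18C* was listed as bacterial-type. Of 24 genes for bacterial-type large subunit proteins, 4 rose and 1 fell (20.8% called, beside 23.5% over all genes), and the median log2 fold change was 0.093. None of 19 genes for mitochondria-specific large subunit proteins was called, with a median of -0.0097. That count was 0 in edgeR, DESeq2, and limma. An unadjusted p below 0.05 in edgeR was found for 1 of the 19, beside 5136 of the 14311 genes tested. Without tissue 1-1 the number called was 2, beside 38.6% called of all 14237 genes tested. In the small subunit, 2 of 15 bacterial-type genes rose, with a median of 0.075. Of 13 mitochondria-specific small subunit genes 1 fell, *MRPS35*, with a median of 0.024. The difference between these classes was not tested. This last class includes *DAP3*, *CHCHD1*, *AURKAIP1*, and *PTCD3*, ribosomal proteins without an MRPS symbol, whose log2 fold changes were 0.19, -0.13, 0.19, and -0.16 (0 of 4 called in edgeR, DESeq2, and limma; 2 at an unadjusted p below 0.05 in edgeR).

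Tissue 1-1 mostly lay below the other week 1 tissues in these genes. It had the lowest FPKM-UQ of its week in 50 of the 68 genes (73.5%) and the highest in 0. Among all 7417 genes at or above the lowest member in level, it was the lowest in 37.5% and the highest in 35.3%. Tissue 1-1 was thus often at an end of its week over all genes as well, there in both directions. Its summed markers were the lowest of week 1 for skeletal muscle (17220 FPKM-UQ), fibroblasts (20260), leukocytes (62.5), and dividing cells (133.8). They were the highest for Schwann cells and neural crest (68.6) and chondrocytes (49.5), and neither for endothelium (56.6). The part of cell composition in this deviation was not tested. The median log2 ratio of tissue 1-1 to the mean of 1-2 to 1-5 was -0.28 for the large subunit and -0.18 for the small subunit, beside -0.0059 for those 7417 genes. It was lowest for *MRPS12* at -0.81, followed, as listed after their values were seen, by *MRPS21* at -0.78, *MRPS36* at -0.76, *MRPL40* at -0.68, *MRPL24* at -0.67, and *MRPL43* at -0.66, and it was highest for *MRPS14* at 0.11. Levels of *MRPL40*, for example, were 103.0, 109.9, and 111.5 FPKM-UQ at week 3, against 76.3, 130.3, 111.5, 125.8, and 120.3 FPKM-UQ at week 1. This gene overlaps *C22orf39* and *HIRA* on the opposite strand and had fractional counts in all 8 tissues. *MRPS36* overlaps *CENPH* on the same strand and had fractional counts in 7 tissues. Reads of these genes may not have been kept apart from those of their neighbours.

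**Figure D3:**
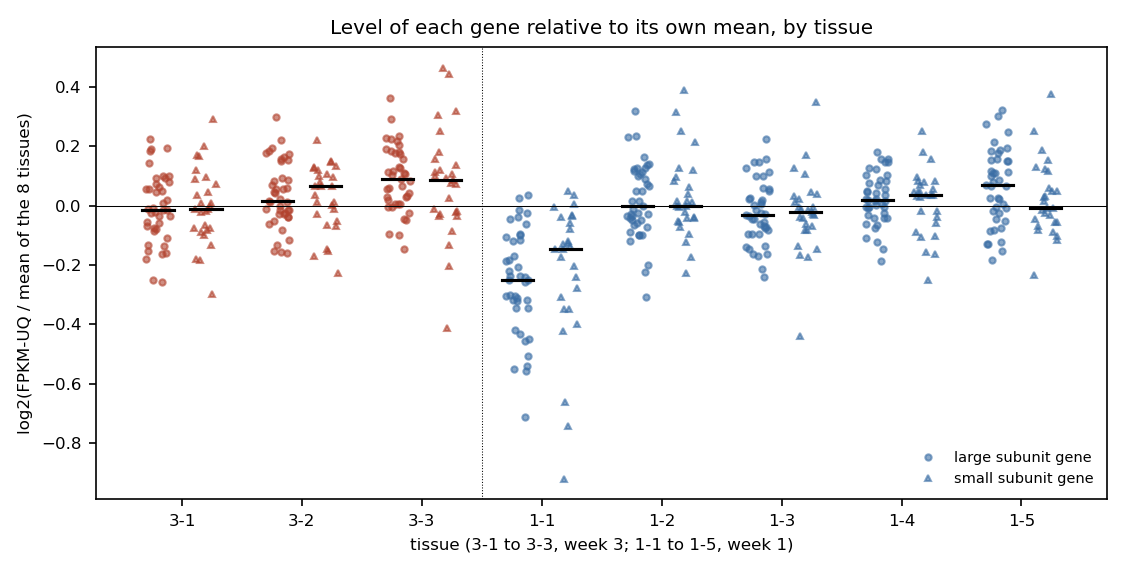
Each point is one gene in one tissue, as the log2 ratio of its FPKM-UQ to its mean over the 8 tissues (circles, 41 large subunit genes; triangles, 27 small subunit genes), and bars are medians. Most points of tissue 1-1 lie below 0, down to *MRPS12*, while those of the other 7 tissues scatter around 0.

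Genomic span, the distance from a gene's start to its end including introns, moved with this deviation. The 68 genes had a median span of 3523 bases. It was 15657 bases for the 7284 protein-coding genes with a mean FPKM-UQ at or above the lowest member, with no upper limit. Spearman's correlation of span with the deviation of tissue 1-1 was 0.35 across the 68 genes and 0.39 across the 7284 genes, meaning that shorter genes tended to be lower in tissue 1-1. Span and the log2 fold change between the weeks had correlations of -0.32 across the 68 genes and -0.17 across the 7284, which came to -0.24 and -0.078 without tissue 1-1. Genes are not independent replicates and share their libraries, and the part of span, RNA quality, or cell composition in the results was not tested.

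Without tissue 1-1, 15 of the 68 genes were called, 10 higher and 5 lower, beside 38.6% of 14237 genes tested. They include all 8 genes called with it, and the 7 added, given after their values were seen, were *MRPL14*, *MRPL23*, *MRPL33*, *MRPL40*, *MRPL43*, *MRPS6*, and *MRPS23*. The median log2 fold change was then -0.0044 in the large subunit and 0.010 in the small subunit. With or without the tissue, the share of called genes was smaller among the 68 than among all genes tested. Within week 3 the 68 genes also leaned by tissue, being highest in 3-3 for 40 genes and lowest in 3-1 for 37.

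Summed over each subunit, transcript levels of the weeks overlapped. The large subunit genes together made up 1903, 1961, and 2029 CPM (estimated counts relative to library sizes scaled by TMM) in tissues 3-1 to 3-3, against 1607, 1968, 1897, 1948, and 2041 CPM in tissues 1-1 to 1-5. The means of 1964 ± 63.0 and 1892 ± 168 CPM (SD, n = 3 and 5) differed by 3.81%, and by 0.043% without tissue 1-1, the mean of 1-2 to 1-5 being 1963 CPM. The small subunit genes made up 1204, 1228, and 1272 CPM at week 3, against 1076, 1214, 1175, 1213, and 1215 CPM at week 1. Their means of 1235 ± 34.4 and 1179 ± 59.9 CPM differed by 4.75%, and by 2.51% without tissue 1-1, the mean of 1-2 to 1-5 being 1204 CPM. Tissue 1-1 had the lowest sum of both subunits, and the ranges of the weeks overlapped with or without it.

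The ratio of the large to the small subunit sum was 1.58, 1.60, and 1.60 at week 3, against 1.49, 1.62, 1.61, 1.61, and 1.68 at week 1. Its means were 1.59 ± 0.0085 and 1.60 ± 0.067 (SD, n = 3 and 5), a difference of -0.75%. The overlap of the weeks rested on tissue 1-1. Without it the week 3 ratios lay below those of the other 4 week 1 tissues, whose mean was 1.63, and the difference was -2.41%, with a pooled SD between tissues of 1.62%. The sums follow the gene names, so *MRPS18A* and *MRPS30*, whose products sit in the large subunit, count in the small subunit sum. *MRPS36* counts there too. The ratio with these genes placed otherwise was not computed, so the separation holds only for sums by name.

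**Figure D4:**
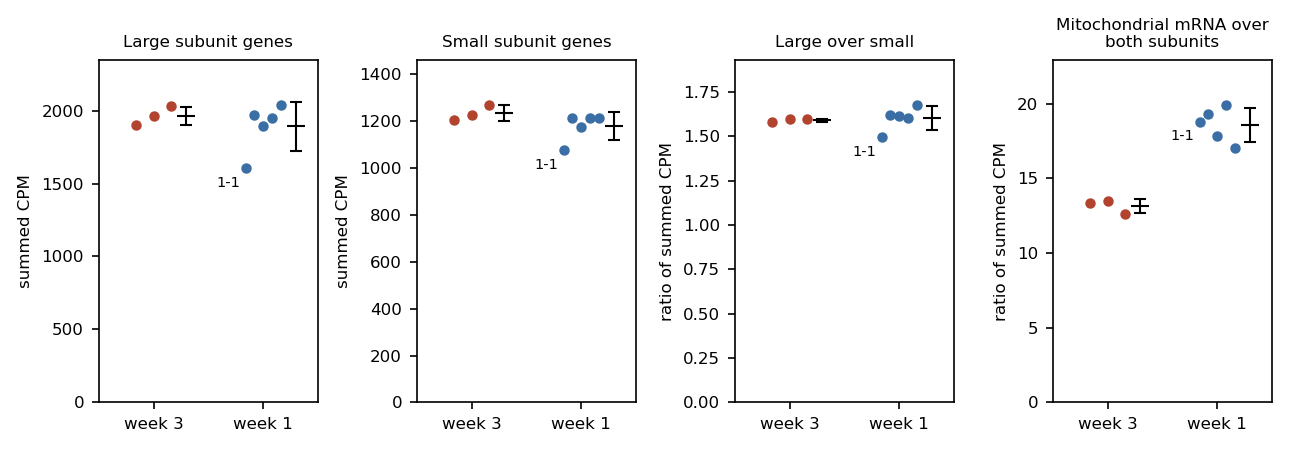
Summed CPM of the large subunit genes and of the small subunit genes, their ratio, and the ratio of summed mitochondrial protein-coding transcripts to both subunits, per tissue (points) with mean and SD (week 3, n = 3; week 1, n = 5), all axes starting at 0. Subunits are taken by gene name (*MRPL* or *MRPS*), so *MRPS18A* and *MRPS30* count in the small subunit. The first 3 panels overlap between the weeks, the third only through tissue 1-1, and in the fourth the week 3 tissues, at 12.7 to 13.5, lie below all week 1 tissues, at 17.1 to 19.9.

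Transcripts of the mitochondrial genome, which this ribosome contains as rRNA and translates as mRNA, were set beside these genes. The shorter of the 2 mitochondrial rRNA genes (ENSGALG00000036956, 976 bases) had 2249 ± 19.8 CPM at week 3 and 1987 ± 115 CPM at week 1 (SD, n = 3 and 5; log2 fold change 0.18, adjusted p = 0.077 in edgeR). For the longer one (ENSGALG00000043598, 1621 bases) the means were 1409 ± 87.4 and 1282 ± 78.7 CPM (log2 fold change 0.14, adjusted p = 0.20 in edgeR). Neither was called. Among the 13 protein-coding genes of the mitochondrial genome 7 fell (53.8%, beside 12.0% called lower over all genes tested). The number called was 8 in DESeq2 and 5 in limma with a pseudocount of 1. Without tissue 1-1 it was 10 in edgeR, beside 38.6% of all genes tested. The 13 genes had a median log2 fold change of -0.36, and their summed level was 42111 CPM at week 3 and 57081 CPM at week 1. The ratio of this sum to that of the 68 genes was 13.4, 13.5, and 12.7 at week 3, against 18.8, 19.3, 17.9, 19.9, and 17.1 at week 1, with no overlap. The preparation of the libraries, and so the treatment of rRNA, is given in the sources used here only as a standard protocol.

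The 68 genes lie on 23 chromosomes. For 22 of them (32.4%), another gene starts on the opposite strand within 1000 bases upstream or with at most 500 bases of overlap, beside 13.4% of 15212 protein-coding genes in the table. One such pair joins both subunits: *MRPL46* and *MRPS11* start 20 bases apart in opposite directions. *MRPL46* had 31.9, 30.3, and 39.3 FPKM-UQ at week 3, against 31.5, 34.1, 33.0, 35.6, and 34.4 FPKM-UQ at week 1, and *MRPS11* had 43.8, 47.3, and 48.5 FPKM-UQ at week 3, against 39.3, 42.0, 39.3, 44.9, and 43.3 FPKM-UQ at week 1. Their log2 fold changes were -0.01 and 0.14, with adjusted p of 0.95 and 0.18 in edgeR. These pairs, like those that follow, were chosen after their values were seen. *MRPL35* rose while *IMMT*, which starts 143 bases away and encodes a scaffold of mitochondrial cristae, fell (log2 fold changes 0.25 and -0.20, adjusted p = 0.042 and 0.046 in edgeR). *TCP1*, a cytosolic chaperonin subunit that starts 180 bases from *MRPL18*, rose with a log2 fold change of 0.29 (adjusted p = 0.012 in edgeR), whereas *MRPL18* was at 0.04 (adjusted p = 0.73). Other pairs shared a direction. *MRPL43* and the helicase gene *TWNK* were at 0.39 and 0.28 (adjusted p = 0.081 and 0.017 in edgeR). *MRPL57* and *SKA3* were at 0.23 and 0.67 (adjusted p = 0.17 and 0.038 in edgeR). For *MRPL32* and *PSMA2* the values were 0.29 and 0.14 (adjusted p = 0.031 and 0.13 in edgeR). Whether such pairs change together was not tested.

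Genes that build and serve the mitochondrial ribosome were compared in the same fit. Of 23 assembly factors 3 rose and 1 fell (17.4% called, beside 23.5% over all genes tested). Those that rose were *MTG2* and *NOA1*, GTPases of ribosome assembly, and *C1QBP*, a matrix protein that binds RNA, with log2 fold changes of 0.48, 0.26, and 0.23. *RBFA*, which acts on the small subunit rRNA, fell to 7.07 ± 0.465 FPKM-UQ at week 3, against 10.5 ± 0.603 at week 1 (SD, n = 3 and 5; log2 fold change -0.59, SE 0.12, adjusted p = 0.0042 in edgeR). Of 11 translation factors (18.2% called), *SLIRP*, which stabilizes mitochondrial mRNAs, rose (log2 fold change 0.47) and the elongation factor *GFM1* fell (log2 fold change -0.26). Among 15 genes for charging mitochondrial tRNAs (13.3% called), *CARS2* and *YARS2* rose (log2 fold changes 0.28 and 0.34). In the list for mitochondrial transcription and genome maintenance (10 genes, 40% called), *SSBP1* and the helicase gene *TWNK* rose (0.42 and 0.28) while *TFB2M* and *POLG2* fell (-0.41 each). *TFAM* and *POLRMT* were at 0.11 and 0.07 with adjusted p of 0.27 and 0.58 in edgeR.

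Of 9 regulators of mitochondrial gene expression, *MYC* rose and *PPARGC1A* fell (22.2% called, beside 23.5% over all genes tested). *PPARGC1A*, the coactivator of mitochondrial biogenesis, was at 8.95 ± 0.79 FPKM-UQ at week 3 and 13.9 ± 2.58 at week 1 (SD, n = 3 and 5; log2 fold change -0.65, SE 0.16, adjusted p = 0.012 in edgeR). *NRF1* and *GABPA*, transcription factors known from mammals to bind promoters of mitochondrial ribosomal protein genes, had log2 fold changes of -0.02 each (adjusted p = 0.95 and 0.89 in edgeR).

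**Figure D5:**
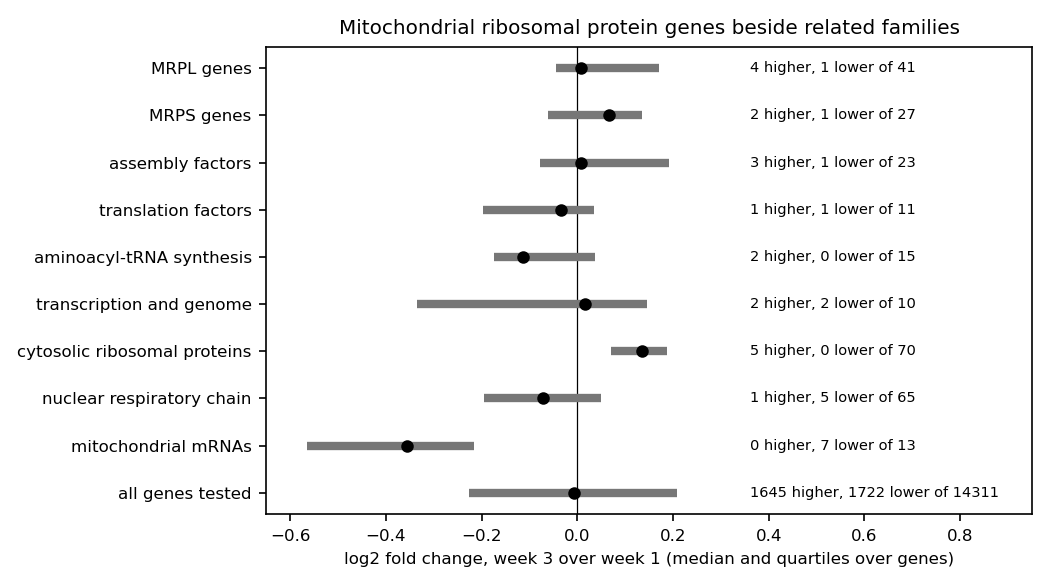
Median (point) and quartiles (bar) of the log2 fold change, week 3 over week 1, over the genes of each family, with the number called higher and lower at week 3 among those tested. Both subunits lie near 0 like all genes tested, cytosolic ribosomal proteins lie at 0.13, and mitochondrial protein-coding transcripts at -0.36.

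Set beside 2 other nuclear families, the mitochondrial ribosomal protein genes lay between them in median log2 fold change (0.043), but not in the share called (11.8%). Among 70 cytosolic ribosomal protein genes 5 rose and none fell (7.14% called, beside 23.5% over all genes), with a median log2 fold change of 0.13. Among 65 nuclear genes of the respiratory chain and ATP synthase 1 rose and 5 fell (9.23% called), with a median of -0.071. The call counts of both families depended on tissue 1-1, as did those over all genes tested, of which 38.6% were called without it. Without this tissue 5 of the 65 respiratory chain genes were called higher and 30 lower. Of the 70 cytosolic genes 17 were then called higher and 2 lower. These medians are given side by side, and the difference between the families was not tested.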

How the data were processed

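RNA of 8 chick muscle tissues was compared, 3 at week 3 and 5 at week 1, with groups taken from the labels. The authors used NovaSeq sequencing and Partek Flow, and the submitters' processing notes name STAR 2.7.3a, Partek, and the genome builds GRCg6a and galGal6. They deposited estimated counts per gene without normalization (81.2% whole numbers, 76.8% for the 68 genes, within 1e-06) and a normalized signal called FPKM-UQ. Recomputed from the counts, it is the count, raised by 1, over a tissue-wide factor (deviation up to 0.000787%). The library kit's strandedness is not given in the sources used here. Of the 68 genes, 19 overlap another gene, 14 of them on the opposite strand, and 19 have fractional counts. Gene ends are given as the last base.

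Rounded counts entered the quasi-likelihood test of edgeR 4.0.16 (R 4.3.3, TMM, filterByExpr) without covariates, with Benjamini-Hochberg adjustment over 14311 genes and a threshold of 0.05. The standard error is the log2 fold change over the square root of F. The edgeR steps were also run on simulated data, with each gene drawn independently. Such data hold no shift shared by many genes of a tissue, so the run says nothing about calls under such a shift. FPKM-UQ of single genes was compared by exact permutation over 56 splits. Depth and 3 against 5 tissues limit the precision to the intervals given. Sums used CPM on TMM library sizes. List symbols were matched directly or through synonyms of the RefSeq table (names only). *TWNK*, *METTL15*, *MRRF*, and *YY1* were found as synonyms of the table's *C10orf2*, *METTL15P1*, *MRRFP1*, and *YY2*, a step added after results had been seen.

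The genes and lists were chosen with earlier results of these data known. Named with values in every tissue were up to 6 called genes per subunit and direction, and *MRPL3*, *MRPL12*, *MRPL44*, *MRPL45*, *MRPL58*, *MRPS12*, *MRPS18A*, *MRPS18C*, *MRPS22*, *MRPS30*, *MRPS34*, and *MRPS36*. Listed but not found in the counts by name or synonym were *MRPL2*, *MRPL4*, *MRPL11*, *MRPL30*, *MRPL36*, *MRPL49*, *MRPL52*, *MRPL55*, *MRPS15*, and *MRPS18B*. Counts, sums, and ratios of the subunits therefore cover only the genes found. Levels per gene length and promoter sequences were not analysed here. Alternatives were DESeq2 1.42.0, limma 3.58.1 on log2 FPKM-UQ (pseudocounts 1 and 0.1, minimum mean 1), upper-quartile factors, no filter or at least 10 counts in every tissue of a week, the replicate number as a block, and each tissue left out. Whether equal numbers pair tissues of the weeks was checked by correlating deviations from the week means.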

Additional observations from a re-analysis of the deposited data

Results flagged for a closer look

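The highest and the lowest week 1 tissue were compared with the others of that week by Dixon's test in 30 sets of values, 19 named genes and 11 summed measures. Chance marks about 1 in 20 such sets, and 2 were marked. *MRPS34* in tissue 1-5 was at 57.6 FPKM-UQ, against 51.6 to 52.8 FPKM-UQ in the other 4 week 1 tissues. The mean level of the small subunit genes, each relative to its own mean over the 8 tissues, was 0.877 in tissue 1-1, against 0.992 to 1.03 in the other 4 week 1 tissues.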

How the results depend on the processing

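The counts of called genes depended on which tissues entered the fit and much less on the tool. Upper-quartile factors, DESeq2, limma on FPKM-UQ under any of its settings, and the stricter filter called the same 5 large subunit and 3 small subunit genes, and without a filter 4 of the 5 and all 3 were called. With 1 tissue left out at a time the count ranged from 0 to 10 in the large subunit, from 0 to 5 in the small subunit, and from 2119 to 5498 over all genes tested, beside 3367 with all tissues. Whether equal replicate numbers pair the tissues could not be settled. Deviations of tissues with the same number had correlations of 0.057, -0.012, and 0.012. Those of tissues with unlike numbers ran from -0.075 to 0.057, so the check neither shows nor excludes a pairing. With the replicate block 1 small subunit gene was called over all tissues and 1 over the 3 pairs, and 2073 and 2064 of all genes, while the large subunit had 4 and 4, of which 1 was among the 5 called without it. *MRPL58* had a log2 fold change of 0.061 with the replicate block over all tissues and 0.061 over the 3 pairs, and -0.04 without it. That the block fits are alike was fixed by the design, because week 1 tissues without a week 3 partner add almost nothing to the week difference. The signs of some named genes that were not called turned with 1 tissue left out: the log2 fold changes ranged from -0.033 to 0.13 for *MRPL3*, -0.031 to 0.012 for *MRPL45*, -0.11 to 0.011 for *MRPL58*, -0.0056 to 0.12 for *MRPS18A*, -0.16 to 0.034 for *MRPS18C*, -0.045 to 0.19 for *MRPS30*, and -0.055 to 0.14 for *MRPS36*. The cause was not tested. The medians and the summed levels moved by less than their spread between tissues under every alternative. For the medians this is a loose limit, since that spread (0.097 and 0.059) was above or near the medians themselves (0.008 and 0.065). The large subunit median ran from -0.012 without 3-3 to 0.076 with the replicate block over all tissues, so its sign was not fixed. The small subunit median ran from 0.010 without 1-1 to 0.088 in limma with a pseudocount of 0.1. With 3 and 5 tissues, the half-width of the 95% interval of a log2 fold change reached 0.37 in the least precise of the 68 genes, and smaller changes of such a gene were not detectable.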
